A study of Rattus norvegicus with 15 samples.

Results

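The nuclear-encoded genes of oxidative phosphorylation were examined in bulk RNA sequencing of rat mammary tumours. A gene was taken when its symbol matched one of the subunit naming patterns of complexes I to V (NDUFA, NDUFB, NDUFC, NDUFS or NDUFV with a number, SDHA to SDHD, UQCR, COX4 to COX8, or ATP5) and its reads summed to 300 or more over all libraries. Of 17463 gene symbols, 82 matched and 79 passed: 35 of complex I, 4 of complex II, 8 of complex III, 15 of complex IV and 17 of complex V. The 3 that did not pass were NDUFA1, with 2 reads in all, and COX6C-PS1 and COX8C, with 0. COX6B2 (385 reads) and NDUFA10L1 (399 reads) lay just above the minimum.

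The tumours came from Fischer rats given N-nitroso-N-methylurea (NMU), a carcinogen that induces mammary tumours, in 2 intraperitoneal injections of 50 mg/kg. In the midkine group (9 libraries) the animals received rat midkine recombinant protein, a heparin-binding growth factor, at 300 ug/kg in 3 treatments a week, for 2 weeks before the first NMU injection and for another 2 weeks before the second. The vehicle group (6 libraries) has no separate schedule in the labels, and the labels give no age. Titles share numbers (vehicle 2-1 and 2-2, midkine 3-1 and 3-2, midkine 4-1 to 4-3), which may stand for tumours of the same animal, so p-values measure the spread between these libraries only.

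Oxidative phosphorylation passes electrons from NADH (complex I) and succinate (complex II) through complex III to oxygen at complex IV, and the proton gradient so built drives ATP synthase, complex V. Most subunits are encoded in the nucleus, a small core is encoded by mitochondrial DNA, and several complex IV subunits exist in a ubiquitous form and a form restricted to muscle, lung or testis. In mammary epithelium and its tumours these genes are expressed along with glycolysis, while oxidative muscle and brown fat are known for very high levels. The mitochondrial DNA-encoded subunits, NDUFA3, NDUFB1, NDUFC1, COX7A1 and COX7B2 are not analysed here.

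Libraries held 4925504 to 8486523 counted reads. Levels are given as CPM, a library's counts relative to its read total times a factor from the trimmed mean of M-values (TMM). CPM of different libraries therefore do not add up to a common total. The factor of midkine 1 was 0.558, which raises its CPM relative to its share of reads. The expression filter was passed by 11665 genes, 77 of them members, while COX6A2 and COX8B did not pass. The 10 listed epithelial markers, which include EPCAM and KRT8, were read in the tumours at a summed 2639 to 14320 CPM, lowest in midkine 1. Midkine 1 stood apart: 20 of 24 listed skeletal muscle markers were in the table, and they summed to 465953 CPM there, 25.7% of its reads, against 495 to 990 CPM in the vehicle libraries and 55.6 to 4687 CPM in the other midkine libraries. MYH4, a fast-fibre myosin, had 461 to 993 reads in 9 other libraries (all 6 of vehicle and midkine 2, 5 and 6) and 0 to 1 in midkine 3-1, 3-2, 4-1, 4-2 and 4-3. In a bulk library, fewer cells of a type and less RNA per cell cannot be told apart. The comparisons of midkine with vehicle are therefore given with and without midkine 1.

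Promoter sequences are shown for the members whose contrast runs through the results: COX8A, the ubiquitous form of a complex IV subunit, its muscle counterpart COX8B, the muscle form COX6A2, and, as members of complexes V and II whose promoters hold 3 of the motifs each, ATP5MG (chosen after its values were seen) and SDHB. Each is a RefSeq sequence of assembly GRCr8 from 250 bases before to 50 after the gene's start, 5′ to 3′ along the gene; the read counts were made on build rn6. Capitals mark exact matches, on either strand, to motifs of factors known for nuclear respiratory genes: NRF1 (GCGCATGCG), ETS and GABP (CCGGAAG), the ERR half-site (AAGGTCA), YY1 (AANATGGCG) and the cAMP response element (TGACGTCA). In COX6A2 they mark a match to the MEF2 motif, a muscle factor's, whose search was added after the values were seen. COX8A lies at chr1:213833574-213833873, COX8B at chr1:205408224-205408523 and COX6A2 at chr1:192219667-192219966, all on the minus strand, with ATP5MG at chr8:54130358-54130657 on the minus strand and SDHB at chr5:158547684-158547983 on the plus strand.
COX8A: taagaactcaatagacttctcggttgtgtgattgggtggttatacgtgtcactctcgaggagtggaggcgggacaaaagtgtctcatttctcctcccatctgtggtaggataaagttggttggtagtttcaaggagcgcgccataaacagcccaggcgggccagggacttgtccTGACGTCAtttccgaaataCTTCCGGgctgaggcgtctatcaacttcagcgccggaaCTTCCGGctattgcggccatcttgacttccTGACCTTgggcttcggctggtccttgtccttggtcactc
COX8B: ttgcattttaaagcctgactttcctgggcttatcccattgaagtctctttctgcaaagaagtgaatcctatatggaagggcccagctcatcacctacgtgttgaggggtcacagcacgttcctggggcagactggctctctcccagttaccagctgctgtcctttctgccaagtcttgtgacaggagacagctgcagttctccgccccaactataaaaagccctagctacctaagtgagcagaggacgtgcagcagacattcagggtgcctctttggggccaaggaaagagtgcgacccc
COX6A2: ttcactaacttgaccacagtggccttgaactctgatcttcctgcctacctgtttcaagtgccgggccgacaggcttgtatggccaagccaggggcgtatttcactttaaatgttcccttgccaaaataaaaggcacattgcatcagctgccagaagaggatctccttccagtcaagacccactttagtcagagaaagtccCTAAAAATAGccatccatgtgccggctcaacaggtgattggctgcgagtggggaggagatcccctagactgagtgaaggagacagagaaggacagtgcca
ATP5MG: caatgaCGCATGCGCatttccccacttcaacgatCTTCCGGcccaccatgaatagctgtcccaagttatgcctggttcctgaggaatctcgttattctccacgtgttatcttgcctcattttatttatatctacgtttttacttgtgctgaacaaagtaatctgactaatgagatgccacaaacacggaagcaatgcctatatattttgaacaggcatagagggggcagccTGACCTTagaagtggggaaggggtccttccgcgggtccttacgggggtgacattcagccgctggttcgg
SDHB: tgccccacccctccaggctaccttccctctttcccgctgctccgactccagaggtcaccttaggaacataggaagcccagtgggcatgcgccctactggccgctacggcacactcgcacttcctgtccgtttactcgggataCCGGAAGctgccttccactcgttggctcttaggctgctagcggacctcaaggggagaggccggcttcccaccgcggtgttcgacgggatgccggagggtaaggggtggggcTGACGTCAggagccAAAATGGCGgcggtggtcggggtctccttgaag

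The COX8A window held 1 cAMP response element, 2 ETS matches and 1 ERR half-site. COX8B held none of the 6 motifs searched, and COX6A2 held the MEF2 match alone. ATP5MG held matches to NRF1, ETS and ERR, and SDHB to ETS, YY1 and the cAMP response element. A RefSeq promoter was found for 69 of the 79 members.

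Among those 69 promoters, 29.0% held the ETS motif, beside 8.75% of all 33469 promoters and 17.2% of the 9709 promoters of genes tested. YY1 was matched in 23.2% of member promoters (3.01% of all, 6.17% of tested), the ERR half-site in 15.9% (4.61% and 2.90%), NRF1 in 8.70% (1.52% and 3.15%) and the cAMP response element in 5.80% (1.83% and 3.07%). Complex I held most of the YY1 matches, 10 of 31 promoters, while none of the 12 complex IV promoters held one. NRF1 was matched in 4 of 16 complex V promoters. None of these 5 motifs was found in 30 of the 69 promoters, and matches of different motifs overlapped in 0. MEF2 was matched in 1.45% of member promoters, 3.29% of all and 1.5% of tested. A match describes letters in this window and was tested against nothing.

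Midkine and vehicle tumours were first compared over all members. With all 15 libraries, the log2 fold change (midkine over vehicle) was above 0 for 68 of 77 members, beside 55.7% of all genes tested, and its median was 0.17 (-0.06 with library size alone as the scale), beside 0.04 over all genes. Without midkine 1 it was above 0 for 13 of 77, beside 52.9% of all genes, and the median was -0.08, beside 0.02. Leaving out this 1 library turned the direction of the median. No member passed an adjusted p of 0.05 in either fit (edgeR quasi-likelihood test, Benjamini-Hochberg over all genes), and no other gene did: the share called was 0.0% of 11665 with midkine 1 and 0.0% of 11632 without it. DESeq2 called 83 genes (0.712%) with all 15 libraries and 161 (1.38%) without midkine 1, 0 of them members in either run.

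At an unadjusted p under 0.05, 0 of 77 members were called in either direction, beside 7.96% of all genes higher and 2.13% lower. Without midkine 1 the count was again 0 of 77, beside 7.98% higher and 2.3% lower. The smallest unadjusted p of a member was 0.259 with all libraries, for NDUFB11, and 0.193 without midkine 1, for SDHA. The 2 groups overlapped in CPM for all 77 members tested; groups that do not overlap were found for 0.0171% of all genes. Without midkine 1 they again overlapped for all 77, beside 0.0943% of all genes that did not overlap.

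Both the scaling and the libraries kept set the direction. With library size alone as the scale, 19 of 77 members lay above 0 (36.0% of all genes), their median was -0.06, each of the 5 complexes had a median below 0, and the median of all genes moved from 0.04 to -0.10. Without midkine 1 and midkine 3-2, the library with the lowest member levels, 42 members lay above 0, the median was 0.01, and 50.8% of all genes lay above 0. Among the 10 libraries with more than 1 MYH4 read, 74 of 77 members lay above 0 (53.2% of all genes) with a median of 0.57, and 20 were higher at an unadjusted p under 0.05 (7.51% of all genes). Dropping midkine 1 from those 10 left a median of 0.13, with 70 of 77 above 0 (49.7% of all genes), and 0 of 77 were then called at an unadjusted p under 0.05, beside 4.29% of all genes higher. The smallest adjusted p of a member in the 10 libraries was 0.441 (edgeR quasi-likelihood test). The 5 libraries left out are all of the midkine group, and they were left out with their MYH4 counts known.

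**Figure D1:**
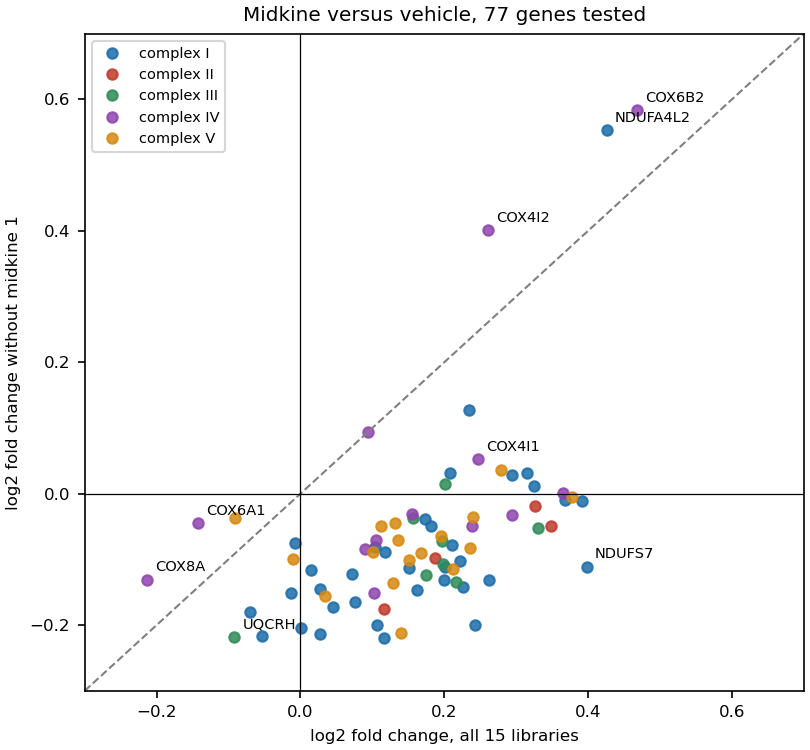
Log2 fold change of midkine over vehicle for each of the 77 members tested, with all 15 libraries on the x axis and without midkine 1 on the y axis; points are genes, coloured by complex, and the dashed line marks equal values. Most points lie right of 0 on the x axis (68 of 77) and below 0 on the y axis (64 of 77), though with library size alone 19 of 77 lay above 0 with all libraries; points above the dashed line include NDUFA4L2, COX6B2 and COX4I2.

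Summed over the members, each library's share of reads was 1.23% to 1.65% in vehicle and 0.682% to 1.96% in midkine. On the TMM scale the sum was 10877 to 15822 CPM in vehicle tumours. In midkine tumours it spanned 7064 CPM in midkine 3-2 to 35589 CPM in midkine 1, and the highest of the others was 16070 CPM. The vehicle range thus lay inside the midkine range, with midkine 1 and midkine 3-2 on either side of it. Midkine 4-2, at 10337 CPM, also lay just below the vehicle range, and midkine 2, at 16070 CPM, just above it.

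**Figure D2:**
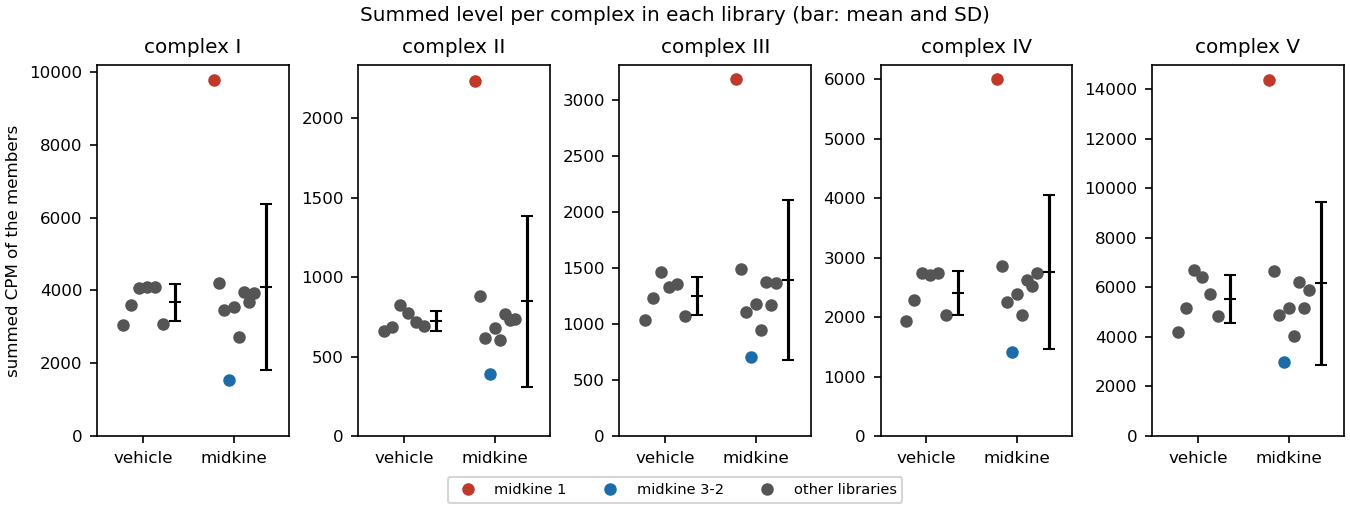
Summed CPM of the members of each complex (y axis, from 0, each panel with its own scale) in the 6 vehicle and 9 midkine libraries; each point is a library, and the bar gives the group mean and SD. In each of the 5 complexes midkine 1 is the highest library (9775 CPM for complex I) and midkine 3-2 the lowest (1546 CPM for complex I), with the vehicle points between them.

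Complex I, the NADH dehydrogenase that takes in electrons from the citric acid cycle, was summed at 3063 to 4107 CPM in vehicle and 1546 to 4195 CPM in midkine tumours other than midkine 1, where it reached 9775 CPM. Its 35 members had a median log2 fold change of 0.17 (31 above 0) with all libraries and -0.11 (6 above 0) without midkine 1. The 7 core subunits, which carry the flavin and the iron-sulphur clusters, had medians of 0.23 and -0.14. The modules had the same signs in the 2 fits, with medians of 0.16 and -0.12 for the NADH-binding N module, 0.18 and -0.16 for the quinone-binding Q module, and 0.15 and -0.08 for the membrane arm. No difference between modules was tested.

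NDUFB11, a membrane-arm subunit, had the smallest p of complex I. It stood at 114 to 159 CPM in vehicle (median 132) and at 91.9 to 501 CPM in midkine (median 138), where 501 CPM was midkine 1 and the next highest library 166 CPM. The groups overlapped, and the log2 fold change was 0.37 ± 0.31 (SE; edgeR adjusted p = 0.752) with all libraries and -0.01 ± 0.13 without midkine 1. NDUFB2 and NDUFB8, other membrane-arm subunits, followed it with 0.39 ± 0.36 and 0.29 ± 0.28, and with -0.01 and 0.03 without midkine 1. NDUFS8, a core subunit that holds iron-sulphur clusters, had the lowest value of the complex, -0.07 ± 0.25, and -0.18 without midkine 1.

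NDUFS7, the core subunit next to the quinone site, showed the widest single step of a tested member. Its vehicle libraries lay at 80.7 to 128 CPM (median 97.4) and its midkine libraries at 44.0 to 459 CPM (median 99.9). Midkine 1 was 4.73 times the median of the other 14 libraries, and no other midkine library exceeded 135 CPM. The core subunits NDUFV1, NDUFV2, NDUFS1 and NDUFS3 were also highest in midkine 1, at 2.12 to 3.78 times the median of the others. NDUFA10L1 is a near copy of NDUFA10, so its 399 reads may be shared with that gene and its values are uncertain.

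Succinate dehydrogenase, complex II, is the only complex encoded wholly in the nucleus and is also an enzyme of the citric acid cycle. Its 4 members had a median log2 fold change of 0.26 (4 of 4 above 0) with all libraries and -0.07 (0 of 4 above 0) without midkine 1. SDHD, a membrane anchor, stood at 114 to 156 CPM in vehicle (median 126) and 70.9 to 488 CPM in midkine (median 132), with 154 CPM as the highest midkine library after midkine 1. Its fold change was 0.35 ± 0.33 (edgeR adjusted p = 0.781), and -0.05 ± 0.15 without midkine 1. The flavoprotein SDHA had 214 to 296 CPM in vehicle (median 244) and 151 to 671 CPM in midkine (median 221), and values of 0.12 and -0.18 in the 2 fits. The iron-sulphur subunit SDHB and the anchor SDHC had 0.19 and 0.33, and -0.10 and -0.02 without midkine 1.

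In complex III, the cytochrome bc1 complex, the 8 members had a median of 0.20 (7 above 0) and of -0.09 (1 above 0) without midkine 1. The Rieske protein UQCRFS1 stood at 125 to 185 CPM in vehicle (median 168) and 113 to 582 CPM in midkine (median 147), where 582 CPM was midkine 1 and 197 CPM the next. Its groups overlapped, with a log2 fold change of 0.33 ± 0.32 (edgeR adjusted p = 0.786), and -0.05 ± 0.14 without midkine 1. The core proteins UQCRC1 and UQCRC2 had 0.16 and 0.20, and -0.04 and -0.07 without midkine 1. UQCRH, the hinge protein that contacts cytochrome c1, was the 1 member of the complex below 0 in both fits (-0.09 ± 0.21 and -0.22 ± 0.17). It was lowest among vehicle libraries in vehicle 6, at 176 CPM beside a vehicle median of 239 CPM.

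Complex IV, cytochrome c oxidase, passes the electrons to oxygen, and its members split into ubiquitous subunits and tissue-restricted forms. The 13 tested had a median of 0.15 (11 above 0) and of -0.03 (5 above 0) without midkine 1. COX4I1, the ubiquitous form of the largest nuclear subunit, stood at 382 to 574 CPM in vehicle (median 512) and 366 to 1209 CPM in midkine (median 508), with 617 CPM the highest midkine library after midkine 1. Its fold change was 0.25 ± 0.22 (edgeR adjusted p = 0.765), and 0.05 ± 0.13 without midkine 1. COX6C and COX7C, small subunits with no restricted form in this set, had 0.37 ± 0.32 and 0.29 ± 0.29, and 0.00092 and -0.03 without midkine 1. NDUFA4 carries a complex I name and was counted there, though its protein is known as a subunit of complex IV; it stood at 176 to 309 CPM in vehicle and 122 to 664 CPM in midkine.

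COX6A2 and COX8B, the forms known from skeletal muscle and heart, were read almost only in midkine 1. COX6A2 had 8, 5, 10, 7, 14 and 5 reads in vehicle 2-1, 2-2, 3, 4, 5 and 6. In midkine it had 3362 reads in midkine 1, 46 in midkine 5 and 2 to 11 in the other 7. COX8B had 6, 5, 5, 6, 19 and 23 reads in the same vehicle order, 2329 in midkine 1, 59 in midkine 4-2, 57 in midkine 5 and 0 to 9 in the other 6. These levels in midkine 1, 800 and 555 CPM, go with its skeletal muscle markers, which summed to 465953 CPM; their part in the result was not tested. COX6A2 in midkine 5, at 1.02% of its midkine 1 level, COX8B there, at 1.83%, and MYH1 there, at 7.75%, were each the highest among the other libraries. COX8B in midkine 4-2 was next, at 1.28%, with 105 CPM of summed muscle markers and 372 CPM of summed adipocyte markers. In midkine 3-2 the adipocyte markers summed to 257 CPM, and COX8B had 1 read. The part of fat cells in the COX8B reads was not tested.

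The ubiquitous partners were low in midkine 1. COX6A1 stood at 253 to 470 CPM in vehicle (median 382) and 158 to 449 CPM in midkine (median 363), and midkine 1, at 158 CPM, was its lowest library; 16.5% of all genes tested had their lowest level there, and COX6A1 was the 1 member that did. COX8A stood at 232 to 326 CPM in vehicle (median 292) and 124 to 384 CPM in midkine (median 257), with 139 CPM in midkine 1. Relative to the median of the other 14 libraries, midkine 1 was at 0.416 for COX6A1 and 0.506 for COX8A. Their log2 fold changes were -0.14 ± 0.23 (edgeR adjusted p = 0.884) and -0.21 ± 0.23 (adjusted p = 0.815), and -0.05 and -0.13 without midkine 1.

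**Figure D3:**
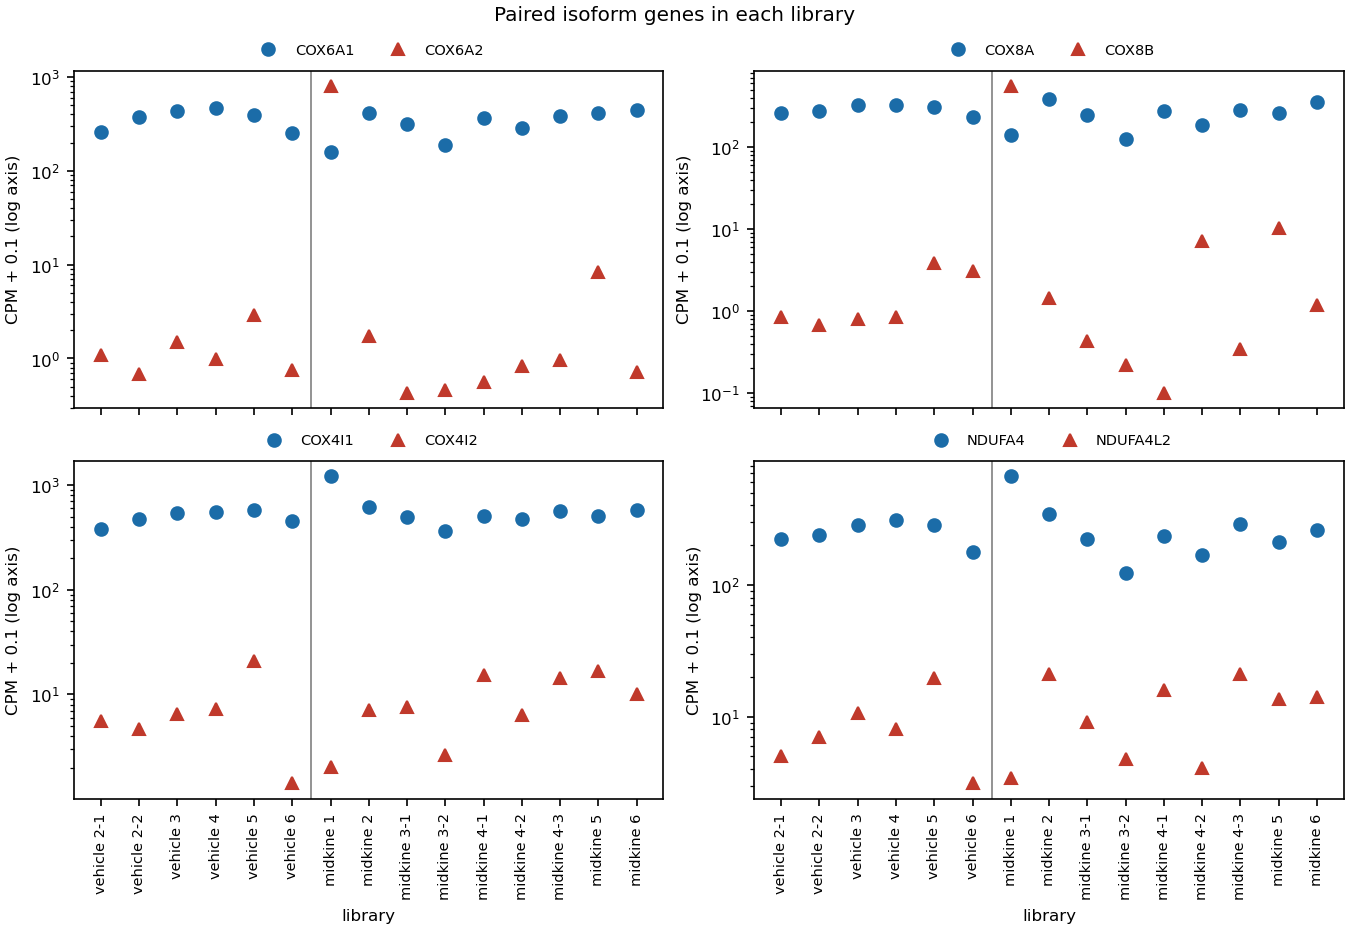
CPM + 0.1 on a log axis of 4 pairs of isoform genes (circles, ubiquitous form; triangles, restricted form) in each library, vehicle left of the line and midkine right of it. COX6A2 and COX8B reach 800 and 555 CPM in midkine 1 and lie at or below 10.2 CPM in the other 14 libraries, while COX6A1 and COX8A are low in midkine 1; heights are comparable across libraries for a gene, not between genes.

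Ratios of a restricted to a ubiquitous form need no scaling between libraries, and 4 pairs could be computed (0.5 added to each count). The log2 read ratio of COX6A2 to COX6A1 was -9.18 to -7.10 in vehicle (median -8.34), 2.34 in midkine 1 and -9.58 to -5.63 in the other midkine libraries. For COX8B to COX8A it was -8.76 to -6.24 in vehicle (median -8.49), 1.99 in midkine 1 and -11.78 to -4.65 in the others. The mean ratio of midkine less that of vehicle was 1.02 for the first pair and 0.73 for the second. Neither differed beyond the spread of the libraries (exact two-sided permutation test over 5005 assignments, p = 0.748 and 0.725, both 0.779 after Benjamini-Hochberg adjustment over 4 pairs). Without midkine 1 both differences were below 0, at -0.18 and -0.40 (exact permutation test, adjusted p = 0.786 for both). Without midkine 3-1 to 4-3 they were 3.16 and 3.09 (exact permutation test over 210 assignments, adjusted p = 0.238 for both), and with libraries averaged by title number 1.82 and 1.51 (exact permutation test, adjusted p = 0.994 for both).

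COX4I2, a form known from lung and from pericytes, and NDUFA4L2, a form known for induction by hypoxia and for expression in pericytes, ran apart from the other members. COX4I2 stood at 1.31 to 20.6 CPM in vehicle (median 5.97) and 1.90 to 16.6 CPM in midkine (median 7.54), highest in vehicle 5 and lowest in vehicle 6. NDUFA4L2 stood at 3.01 to 19.6 CPM in vehicle (median 7.41) and 3.33 to 21.1 CPM in midkine (median 13.5), again with vehicle 5 the highest vehicle library and vehicle 6 the lowest library of all. In midkine 1 they were at 0.269 and 0.341 of the median of the others. Their log2 fold changes were 0.26 ± 0.54 and 0.43 ± 0.48 (edgeR adjusted p = 0.912 and 0.824), and 0.40 and 0.55 without midkine 1. Single vehicle libraries moved them further: COX4I2 was at 0.038 without vehicle 6 and 0.85 without vehicle 5, and NDUFA4L2 at 0.25 and 0.82.

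The 8 pericyte markers had a median log2 fold change of 0.44 (5 of 8 above 0), and of 0.52 without midkine 1. KCNJ8, HIGD1B, RGS5 and CSPG4 were highest among vehicle libraries in vehicle 5 (19.2, 13.3, 36.7 and 23.4 CPM). They were lowest in vehicle 6 (4.19, 1.18, 16.0 and 8.25 CPM), and these 2 libraries were also the vehicle extremes for COX4I2 and NDUFA4L2. The other markers did not share this order. NOTCH3 was lowest among vehicle libraries in vehicle 5 (114 CPM). PDGFRB was highest in vehicle 4 (126 CPM) and lowest in vehicle 3 (28.7 CPM). ABCC9 was highest in vehicle 5 (16.1 CPM) but lowest in vehicle 2-2 (7.01 CPM). The summed markers, 427 to 731 CPM in vehicle and 384 to 687 CPM in midkine, had another order: vehicle 6 was highest, where MCAM alone had 502 CPM, and midkine 1 was lowest. ABCC9 stood at 150 CPM in midkine 1, its highest library. The part of these markers in the levels of COX4I2 and NDUFA4L2 was not tested.

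The log2 read ratio of NDUFA4L2 to NDUFA4 was -5.84 to -3.84 in vehicle (median -5.19) and -5.40 to -3.78 in midkine tumours other than midkine 1, which was at -7.59. Midkine exceeded vehicle by 0.36 with all libraries (exact permutation test, p = 0.557, adjusted p = 0.779) and by 0.72 without midkine 1 (exact permutation test over 3003 assignments, p = 0.0539, adjusted p = 0.216). For COX4I2 to COX4I1 the difference was 0.19 (exact permutation test, p = 0.779, adjusted p = 0.779), and 0.57 without midkine 1 (exact permutation test, adjusted p = 0.587). Neither pair passed the threshold.

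COX6B2, a form known from testis, had 385 reads in all. It stood at 1.69 to 4.32 CPM in vehicle (median 3.07) and 0.447 to 7.68 CPM in midkine (median 2.93), highest in midkine 6 and lowest in midkine 2. Its fold change was the highest of the 77, 0.47 ± 0.48 (edgeR adjusted p = 0.802), and it was 0.58 ± 0.47 without midkine 1. COX7A2L, a factor of respiratory supercomplexes and not a core subunit, varied least across the 14 libraries other than midkine 1 (SD of log2 level 0.207) and was at 1.09 of their median in midkine 1.

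ATP synthase, complex V, makes ATP in its F1 head while protons turn the c ring. Its 17 members had a median of 0.14 (15 above 0) and of -0.08 (1 above 0) without midkine 1. The F1 head subunits ATP5F1A and ATP5F1B, the catalytic alpha and beta chains, stood at 592 to 1268 and 1245 to 2283 CPM in vehicle (medians 735 and 1562). In midkine they stood at 473 to 2542 and 1099 to 5128 CPM (medians 699 and 1596), with midkine 1 the highest library for both. The 5 head subunits had medians of 0.24 and -0.08 in the 2 fits, and the 4 of the peripheral stalk 0.13 and -0.09.

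ATP5F1E, the epsilon subunit of the head, had the smallest p of the complex. It stood at 95.3 to 167 CPM in vehicle (median 146) and 64.5 to 512 CPM in midkine (median 149), with 162 CPM the highest midkine library after midkine 1. Its log2 fold change was 0.38 ± 0.34 (edgeR adjusted p = 0.771), and -0.01 ± 0.18 without midkine 1. ATP5F1D, the delta subunit, and ATP5PB, a stalk subunit, had 0.28 ± 0.26 and 0.24 ± 0.27, and 0.04 and -0.04 without midkine 1. ATP5IF1 is not a subunit of the motor but the protein that inhibits its ATP hydrolysis. It stood at 162 to 258 CPM in vehicle (median 201) and 127 to 239 CPM in midkine (median 186), at 0.710 of the others' median in midkine 1, and had the lowest value of complex V, -0.09 ± 0.17, with -0.04 ± 0.16 without midkine 1.

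**Figure D4:**
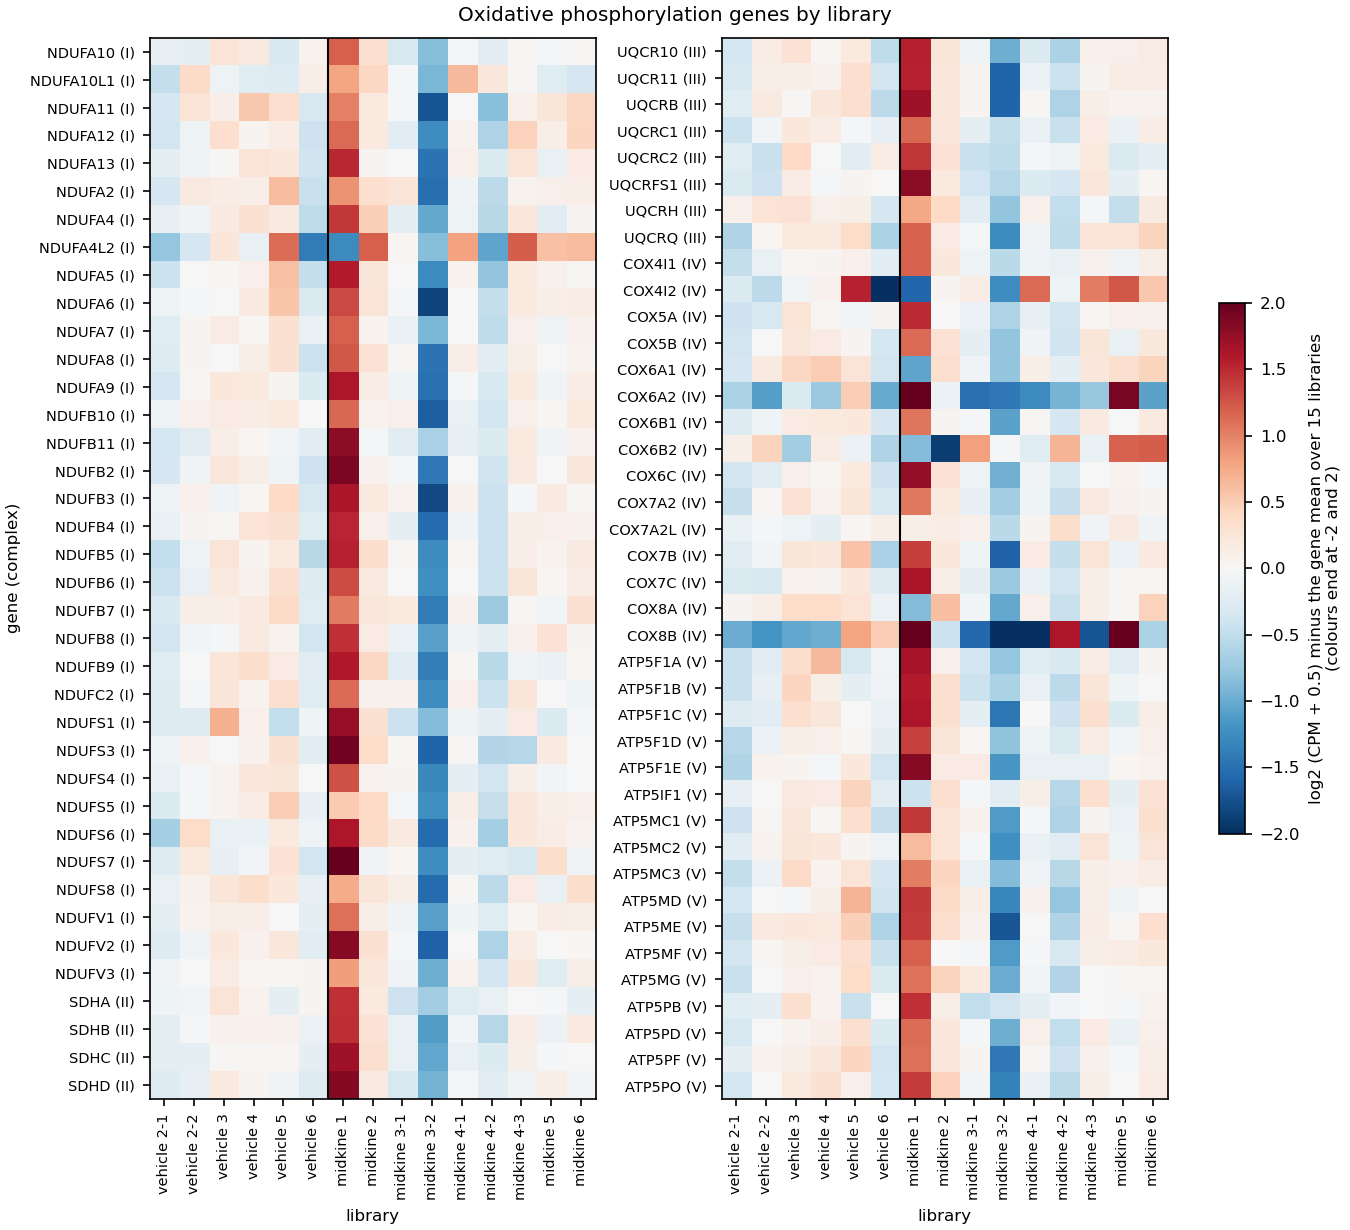
Log2 (CPM + 0.5) of 78 of the 79 members minus the gene's mean over 15 libraries, with libraries on the x axis (vehicle left of the line) and genes on the y axis, complex in brackets; colours end at -2 and 2. The midkine 1 column is red for most genes, with COX4I2, NDUFA4L2, COX6A1, COX6B2 and COX8A among the blue ones, the midkine 3-2 column is blue, and the midkine 4-2 column is paler blue.

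Midkine 1 was the highest library for 70 of the 77 members tested, beside 20.1% of all genes tested. Its level was a median 2.51 times the median of the other 14 libraries, while over all genes that ratio was 0.94. The 7 exceptions were COX4I2, NDUFA4L2, COX6A1, COX6B2, COX8A, ATP5IF1 and COX7A2L. The count was 70 with relative log expression scaling, 68 with upper-quartile scaling and 47 with library size alone. On that last scale the member ratio was 1.31 and the ratio over all genes 0.50. The TMM factor of midkine 1 was 0.558, the lowest of the 15 libraries.

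By complex, the median ratio of midkine 1 to each gene's own mean was 1.32 on the log2 scale for complex I, 1.58 for complex II, 1.48 for complex III, 1.07 for complex IV and 1.40 for complex V. Cytosolic ribosomal protein genes, listed as another abundant housekeeping class, were at -0.08 there. NDUFS7 (4.73), NDUFS3 (3.78), SDHD (3.76), NDUFB11 (3.75) and UQCRFS1 (3.72) had the highest ratios to the median of the other libraries. These levels stand beside the skeletal muscle markers of midkine 1, 465953 CPM, whose part in them was not tested. The 7 of 8 brown adipocyte markers in the table summed to 18.6 CPM there, inside the vehicle range of 14.7 to 48.9 CPM, and UCP1 had 0 reads in each library but midkine 5, which had 2. DIO2, the most read of them in vehicle, was at 4.29 CPM in midkine 1, below each vehicle library, while ADRB3 and ZIC1 had 10 reads each there and at most 1 in any other library, and EBF2, at 5.0 CPM, was highest there. The 9 of 10 general adipocyte markers in the table summed to 935 CPM in midkine 1, the highest library, against 73.7 to 165 CPM in vehicle. They also summed to 674 CPM in midkine 5, 372 CPM in midkine 4-2 and 257 CPM in midkine 3-2. Midkine 5 was unusual in another list as well. Its 10 fibroblast markers summed to 145044 CPM, 12.9% of its reads, against 560 to 10919 CPM in vehicle. ADIPOQ was at 176 CPM in midkine 1 and 0 in midkine 5, and FABP4 at 345 and 343 CPM. In midkine 5, 4-2 and 3-2 the oxidative phosphorylation members summed to 13290, 10337 and 7064 CPM, against 35589 CPM in midkine 1. The part of these fat and fibroblast markers in the member levels was not tested either.

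Midkine 3-2 was the other extreme. It was the lowest library for 71 of the 77 members, beside 27.6% of all genes tested, at a median 0.45 times the median of the other 14 libraries, and 0 members lay above their own mean there. Here and below, a gene's own mean is over all 15 libraries, with midkine 1 included. The share of all genes above their own mean is not given here. The count was 68 with relative log expression scaling, 72 with the upper quartile and 70 with library size alone. NDUFA6 (0.259), NDUFA11 (0.267), NDUFB3 (0.269) and ATP5ME (0.270), chosen after their values were seen, had the lowest ratios. COX6B2 (0.956), ATP5IF1 (0.825) and ATP5PB (0.778) had the highest. On the log2 scale the complexes stood at -1.27 (I), -0.99 (II), -0.88 (III), -0.78 (IV) and -1.14 (V) from their own means.

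Other lists did not all follow in that library. Ribosomal protein genes were at -0.36 in midkine 3-2. Epithelial markers summed to 13526 CPM there, above the vehicle range of 6196 to 9775 CPM. CLDN4 alone gave 4494 CPM, against 149 to 336 CPM in vehicle. EPCAM, KRT8, CDH1 and ELF3 also lay above their vehicle ranges, KRT5 below (398 CPM), and KRT18, KRT19, CLDN3 and KRT14 inside. T cell markers summed to 567 CPM, above the vehicle range of 38.7 to 115 CPM. Muscle markers in midkine 3-2, at 55.6 CPM, were the lowest of all libraries. Midkine 4-2 came next, with members at -0.42, 3 of 77 above their own mean, and the highest summed T cell (1656 CPM) and macrophage (3032 CPM) markers. The part of these markers in the member levels was not tested.

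**Figure D5:**
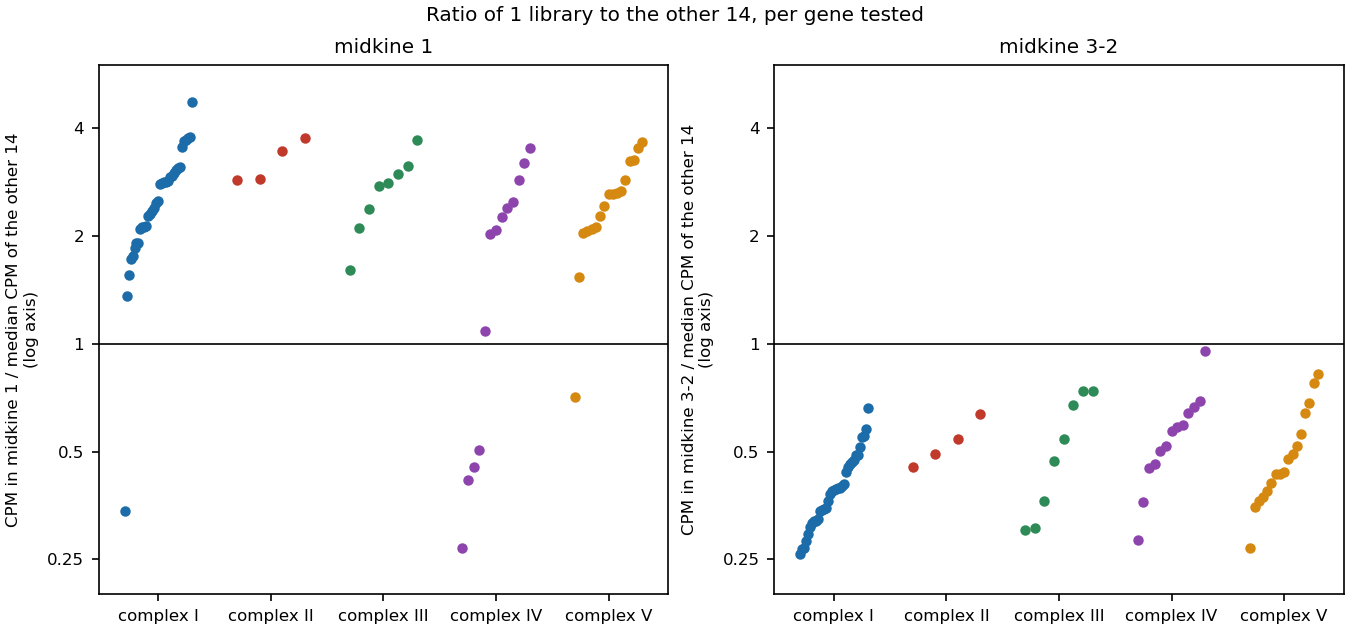
CPM in midkine 1 (left) and in midkine 3-2 (right) divided by the median CPM of the other 14 libraries, on a log axis, for the 77 members tested, sorted within each complex; the line marks 1. In midkine 1 the ratios run from 0.27 (COX4I2) to 4.73 (NDUFS7) with a median of 2.51, and in midkine 3-2 all lie below 1, from 0.26 (NDUFA6) to 0.96 (COX6B2).

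Among the vehicle tumours the members moved within a narrower band. Their median level relative to each gene's own mean was -0.28 in vehicle 2-1 and -0.26 in vehicle 6, and 0.12 to 0.20 in vehicle 3, 4 and 5, with -0.02 in vehicle 2-2. Vehicle 2-1 had 3 of 77 members above their own mean and vehicle 4 had 70 of 77. Midkine 1, the highest library for most members, raises these means and so lowers such counts in the other libraries. Over the 14 libraries other than midkine 1, COX4I2, NDUFA4L2 and COX6B2 varied most (SD of log2 level 0.972, 0.879 and 0.818), and COX7A2L, COX4I1 and NDUFB11 least (0.207, 0.219 and 0.221). The restricted forms were thus the most variable members and are also among the least read.

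The wider pathway was read from lists of related genes. The citric acid cycle, which feeds complexes I and II, had 13 of 13 genes measured, with a median log2 fold change of 0.27 (12 above 0) and of -0.07 (3 above 0) without midkine 1. It stood at 1.58 in midkine 1 and -0.77 in midkine 3-2 relative to the gene means. CS, citrate synthase, had 104 ± 25.8 CPM in vehicle (SD, n = 6), 330 CPM in midkine 1 and 80.1 to 175 CPM over the other 14 libraries. With all 15 libraries and without midkine 1, none of these genes was called at an adjusted or an unadjusted p under 0.05. Over all genes, 7.96% were higher and 2.13% lower at the unadjusted p with all libraries, and 7.98% and 2.3% without midkine 1. Among the 10 libraries with more than 1 MYH4 read, 2 of the 13 were higher at the unadjusted p, beside 7.51% of all genes.

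Some subunits have names outside the patterns. CYCS, the cytochrome c that carries electrons to complex IV, had 434 CPM in midkine 1 and 52.5 to 101 CPM over the other 14 libraries. NDUFAB1, the acyl carrier protein of complex I, had 293 CPM and 33.0 to 118 CPM. The 5 of 8 measured had medians of 0.19 and -0.09 in the 2 fits. At an unadjusted p under 0.05, 0 were called in either fit, beside 7.96% of all genes higher and 2.13% lower with all libraries. Among the 10 libraries with more than 1 MYH4 read, 1 of the 5 was higher at that p, beside 7.51% of all genes.

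Assembly factors, which build the complexes without being part of them, differed by complex in midkine 1. Relative to the gene means, the median there was 1.14 for complex I factors (13 measured of 16), 1.46 for complex II (3 of 4), 1.25 for complex III (6 of 6), 0.43 for complex IV (17 of 23) and 1.02 for complex V (4 of 4). In midkine versus vehicle their medians were 0.03, 0.12, 0.13, 0.02 and 0.06, and -0.15, -0.15, -0.13, -0.10 and -0.15 without midkine 1. NDUFAF7, a complex I factor, had 24.6 ± 5.34 CPM in vehicle and 21.0 CPM in midkine 1, and SDHAF1, a complex II factor, had 1.09 ± 0.376 CPM in vehicle and 5.48 CPM in midkine 1.

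Regulators of mitochondrial biogenesis had 12 of 13 genes measured and a median of 0.16 (8 above 0), and of 0.04 (6 above 0) without midkine 1. PPARGC1B, a co-activator of these genes, had 3.20 ± 0.804 CPM in vehicle and 7.62 CPM in midkine 1. YY1, whose motif was matched in SDHB above, had 51.0 ± 10.7 CPM in vehicle. It had 64.8 CPM in midkine 1, inside its range of 37.9 to 125 CPM over the other 14 libraries. With all 15 libraries and without midkine 1, none of the assembly factors or regulators was called at an adjusted or an unadjusted p under 0.05. Over all genes, 7.96% were higher and 2.13% lower at the unadjusted p with all libraries. Among the 10 libraries with more than 1 MYH4 read, 1 complex III factor, 1 complex IV factor and 1 regulator were higher at that p, beside 7.51% of all genes. With midkine 1 dropped from those 10, 1 regulator was lower, beside 288 of 11761 genes.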

How the data were processed

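Poly(A) RNA of mammary tumour pieces was sequenced as 150-bp paired ends. The deposited table holds whole-number read counts per gene symbol, which the authors made on build rn6, per the submitters' processing notes; for the aligner's version and the counting settings, the sources used here give nothing. Members were found by symbol. Counts were scaled by TMM and filtered by edgeR's filterByExpr within the 2 groups. They were tested with edgeR 4.0.16 in R 4.3.3 (quasi-likelihood, Benjamini-Hochberg over all genes). The procedure was also run on simulated counts with planted changes. Those held no library that stood apart as midkine 1 does, so that run cannot show how the test behaves with it. Isoform ratios were tested by exact permutation (Python 3.11.15). Alternatives were DESeq2 1.42.0, limma 3.58.1 (voom), other scalings and filters, a replicate block, summed counts and libraries left out. The members and lists were chosen with earlier results of these data known. Genes were named by rule: tissue-restricted forms and partners, core subunits, per complex the 3 smallest p-values and the highest and lowest log2 fold change, members under a filter, 2 genes of smallest p per pathway list, and markers; some of these genes are not reported here. Promoter letters come from RefSeq GRCr8, with 10 members unmatched. Library totals of 4925504 to 8486523 counts limit precision for members of few reads. Libraries of a group differed beyond sampling noise (lowest chi-square per degree of freedom 19.9).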

Additional observations from a re-analysis of the deposited data

Results flagged for a closer look

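In groups of 4 to 10 libraries, the gap between an extreme library and its neighbour was divided by the group's range and set against Dixon's 95% critical value, 0.625 for the 6 vehicle and 0.493 for the 9 midkine libraries. Of 72 groups examined, 21 exceeded it, 20 of them at midkine 1. Chance flags about 1 in 20 groups, but these groups share their libraries. The genes were also named in part by their p or fold change in these same data, so the count cannot be set against that rate. For the median relative level, the gap of midkine 1 was 0.522 of the range in complex II and 0.534 in complex III. Among log2 levels it was 0.654 for NDUFB11, 0.5 for NDUFB2, 0.59 for SDHA, 0.501 for SDHC and 0.597 for SDHD. In complex III it was 0.66 for UQCRFS1, 0.584 for UQCRC2 and 0.57 for UQCRC1.

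In complex IV midkine 1 stood apart by 0.542 of the range for COX6C, 0.563 for COX4I1, 0.635 for COX7C, 0.658 for COX6A2 and 0.564 for COX8B. In complex V the gap was 0.556 for ATP5F1E, 0.516 for ATP5F1D and 0.674 for ATP5PB. Midkine 1 lay above the others in each of these. The log2 ratio of COX6A2 to COX6A1 was high there, with a gap of 0.669, and that of NDUFA4L2 to NDUFA4 was low, with a gap of 0.575. The remaining case was UQCRH in vehicle 6, the lowest vehicle library, with a gap of 0.689.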

How the results depend on the processing

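No gene passed the adjusted p in any edgeR or limma setting, and DESeq2 called 83 genes, and 161 without midkine 1 (a run added after seeing the data), 0 of them members. Leaving out 1 library at a time gave medians of -0.084 to 0.28 for all members, -0.11 to 0.29 for complex I, -0.073 to 0.36 for complex II, -0.090 to 0.30 for complex III, -0.033 to 0.24 for complex IV and -0.082 to 0.24 for complex V, each lowest without midkine 1 and highest without midkine 3-2. Of the 24 members followed by name, a selected part of the 77 tested, 12 turned sign without midkine 1, and 1, NDUFS8, without midkine 3-2. Over all 77, 68 lay above 0 with all libraries and 13 without midkine 1. Ranges over libraries left out were -0.010 to 0.45 for NDUFB11, -0.011 to 0.51 for NDUFB2, -0.18 to 0.047 for NDUFS8, -0.18 to 0.19 for SDHA, -0.097 to 0.29 for SDHB, -0.018 to 0.43 for SDHC, -0.049 to 0.45 for SDHD, -0.052 to 0.41 for UQCRFS1, -0.073 to 0.30 for UQCRC2, -0.037 to 0.22 for UQCRC1, -0.033 to 0.38 for COX7C, -0.0051 to 0.49 for ATP5F1E and -0.035 to 0.33 for ATP5PB. The isoform differences ran from -0.19 (without vehicle 6) to 0.57 for COX4I2 over COX4I1, from -0.18 to 1.31 for COX6A2 over COX6A1 and from -0.40 to 1.32 for COX8B over COX8A. With library size alone the medians were -0.060 (all members), -0.065 (I), -0.0021 (II), -0.055 (III), -0.042 (IV) and -0.078 (V), with SDHA at -0.14, SDHB at -0.060, UQCRC2 at -0.042, UQCRC1 at -0.056 and ATP5PB at -0.0072.

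The labels do not say whether title numbers shared by the groups pair the libraries. Correlations of same-numbered deviations from the group means were -0.187, -0.236, 0.139, -0.189 and -0.165. They cannot decide this, as the midkine mean includes midkine 1. The replicate block, which has no vehicle partner for midkine 1, gave medians of -0.082 (all members), -0.11 (I), -0.078 (II), -0.087 (III), -0.046 (IV) and -0.075 (V), and -0.12 for COX8B over COX8A. It gave NDUFB11 -0.046, NDUFB2 -0.040, SDHA -0.18, SDHB -0.089, SDHC -0.012, SDHD -0.066, UQCRFS1 -0.067, UQCRC2 -0.12, UQCRC1 -0.051, COX7C -0.040 and ATP5PB -0.055. DESeq2 gave NDUFB2 -0.00034 and SDHD -0.040, and limma-voom gave SDHA -0.0175, and -0.0170 with correlated libraries. Counts summed by title number gave NDUFS8 0.0065 and UQCRH 0.030.

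Without midkine 3-1 to 4-3, NDUFS8 was 0.23, UQCRH 0.20 and COX4I2 over COX4I1 -0.17. With midkine 1 left out as well, NDUFS8 was 0.059, SDHA -0.0049, UQCRC2 -0.0013, COX8A 0.20, COX6A1 0.22 and ATP5IF1 0.086. Without midkine 1 and midkine 3-2, complex I was -0.0032, complex III -0.0030, SDHA -0.11, UQCRFS1 -0.0014, UQCRC2 -0.025, COX6A1 0.045 and ATP5PB -0.0017. The difference of medians was -0.36 for COX6A2 over COX6A1. The settings that leave out pairs or sets with midkine 1 were chosen after seeing the data, the COX7A1 and COX7A2 pair was not run, and the cause of these changes was not tested beyond the libraries removed.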
